A study of Arabidopsis thaliana with 12 samples.

Results

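The late embryogenesis abundant (LEA) family of Arabidopsis thaliana was examined as a list of 51 locus identifiers, the published set of LEA genes, out of 22028 genes listed with RNA signal in at least 1 library and 32883 annotated rows with a position on chromosomes 1 to 5. Members belong by family and not by a measured value, though the list was chosen with earlier results of these data known. RNA was sequenced from whole seedlings of 2 genotypes, with 3 libraries each. The first is GFP:BRC1ind (the induced line), in which an estradiol induction system switches on BRC1 fused to green fluorescent protein. The second is brc1-2, a knock-out of BRC1 used as the control. Seedlings of both genotypes were 10 days old and carry the same label of 10 uM estradiol, and tissue was taken 5 hours later. The anti-GFP chromatin immunoprecipitation (ChIP-seq) comes from the induced line. The groups differ in genotype and in the transgene, the genotype label of the inducible line names no brc1 allele, and no library comes from that line without estradiol. The labels name no promoter or cell type for the transgene and no number of independent lines. They do not say whether replicates were grown separately, so p-values measure the spread between these libraries only.

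LEA proteins are small, mostly very hydrophilic proteins that accumulate when seeds dry out and, for some members, when vegetative tissue meets drought, cold or the hormone abscisic acid (ABA). Many are unfolded in water, and they are thought to protect membranes and enzymes during water loss. The family is split by sequence domain into dehydrins, LEA_1 to LEA_5, seed maturation proteins (SMP), PvLEA18 and AtM. BRC1 is a TCP transcription factor that holds axillary buds dormant, and the study asked which genes it controls.

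In what follows, 3 FPKM values against 3 others are those of induced libraries 1, 2 and 3 against brc1-2 libraries 1, 2 and 3, in that order. Per library, between 33176994 and 53385759 fragments were derived from the confidence bounds, and between 20566 and 21555 genes were listed. BRC1 itself (AT3G18550), the check of the labels, was listed at an FPKM (fragments per kilobase and per 1e6 fragments) of 3370, 3421 and 3625 against 1.34, 1.66 and 2.20 (log2 change 10.32, SE 0.12, limma adjusted p = 1.79e-06; two-sided exact permutation p = 0.1, the smallest that 3 against 3 allows). Tests were made on log2(FPKM + 1) for genes that reached 1 FPKM in 3 or more libraries. The limma adjusted p was under 0.05 for 3413 of 21038 genes (16.2%). This number was 1637, 1760 and 2015 without induced library 1, 2 or 3, and 2219 without brc1-2 library 2.

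Of the 51 LEA members, 34 were listed in at least 1 library, 18 in all 6 and 17 in none. The number listed per library was 29, 30 and 32 against 28, 22 and 20. The summed FPKM of the family was 5974, 6627 and 6096 against 5209, 4954 and 5496, higher in all induced libraries. AT1G54410, a small histidine-rich dehydrin, was the highest member in every library and ranked between 39 and 62 among all genes, at 1853, 2015 and 1690 FPKM against 2152, 2236 and 2361. COR47 came next in the induced line and SAG21 in brc1-2. A gene that is not listed is given as 0 here. No listed piece had fewer than 9.59 derived fragments, so such a 0 is an absence from the table and not a measured absence of RNA. In bulk seedlings, fewer cells with a transcript and less transcript per cell cannot be told apart.

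**Figure D1:**
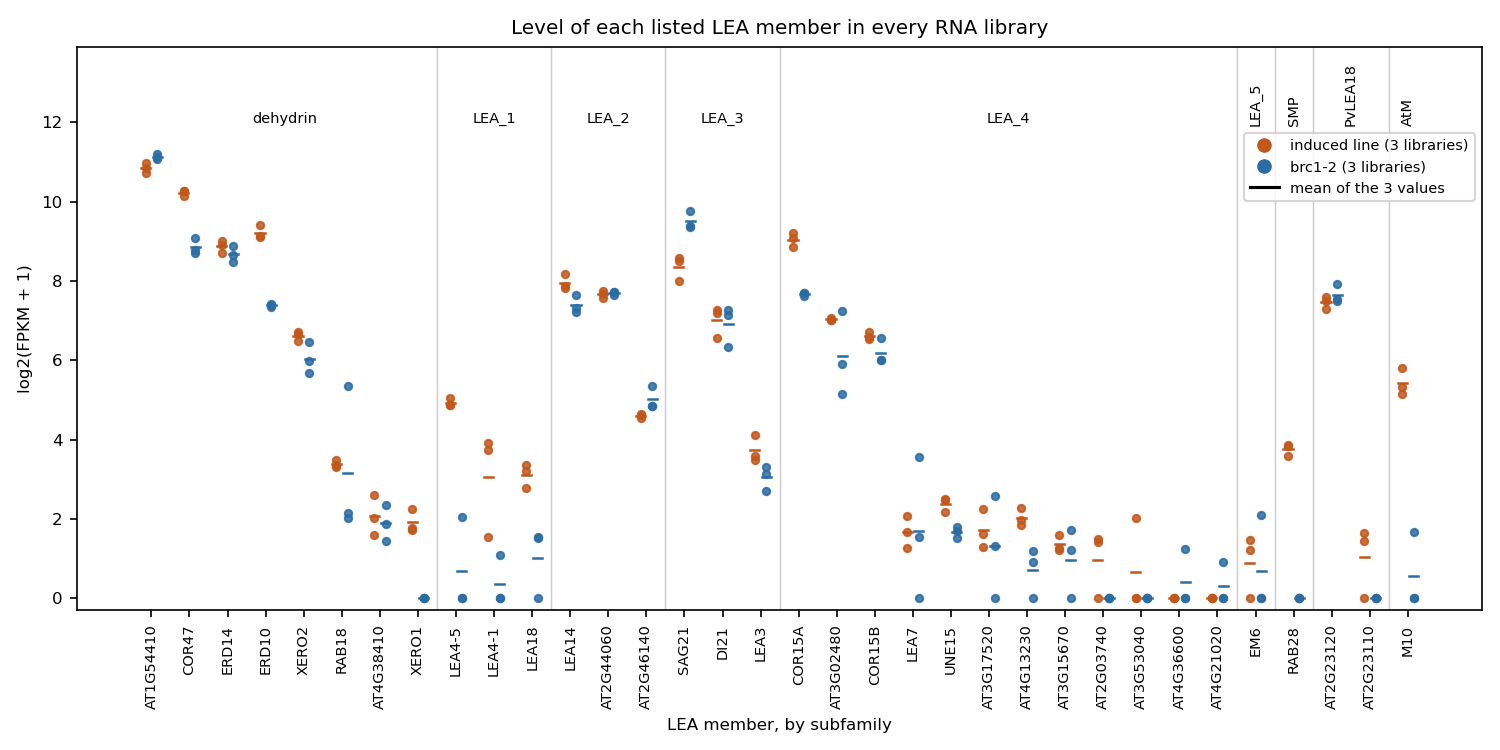
Level of each of the 34 listed LEA members as log2(FPKM + 1) on the vertical axis, by subfamily on the horizontal axis. Points are single libraries of the induced line (orange) and brc1-2 (blue), and short lines are means of 3 values. The orange points lie above all blue points for 14 members, among them COR47, ERD10, COR15A, LEA4-5, RAB28 and M10. They lie below all blue points for 3, among them SAG21.

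In the induced line 9 of 29 tested members rose and 1 fell. The background was 7.37% of all tested genes higher and 8.86% lower. The members that rose were the dehydrins COR47, ERD10 and XERO1, LEA4-5 and LEA18 of LEA_1, COR15A and UNE15 of LEA_4, RAB28 of SMP and M10 of AtM. SAG21 of LEA_3 fell. The fitted log2 change was at least 1 in size for 8 of the 9 and for SAG21. The remaining 19 tested members did not pass the threshold. The median log2 change of the 29 was 0.56, beside 0.04 for all tested genes. RAB28 and XERO1 passed the filter on low values through the induced line alone, where they are high, so the count of 9 and this median are descriptions. Of the other 27 tested members, 7 rose and 1 fell. Among these 7, M10, LEA4-5 and LEA18 reached 1 FPKM in fewer than 3 brc1-2 libraries. They too needed the induced line, where they are high, to pass the filter, so their calls are descriptions as well. Among the 18 members listed in all 6 libraries, 4 rose and 1 fell, with a median of 0.32 beside 0.04 for all genes listed in all libraries, where 7.48% rose and 8.57% fell. The groups did not overlap for 17 of the 29, beside 38.9% of all tested genes. In 14 of the 17 the induced libraries were the higher ones, beside 20.8% of all tested genes, and in 3 they were the lower ones. Among the 14 are RAB28, XERO1, M10, LEA4-5, LEA18, LEA4-1 and AT4G13230, which needed the induced line, where they are high, to pass the filter. The counts of 17 and 14 are therefore descriptions too.

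**Figure D2:**
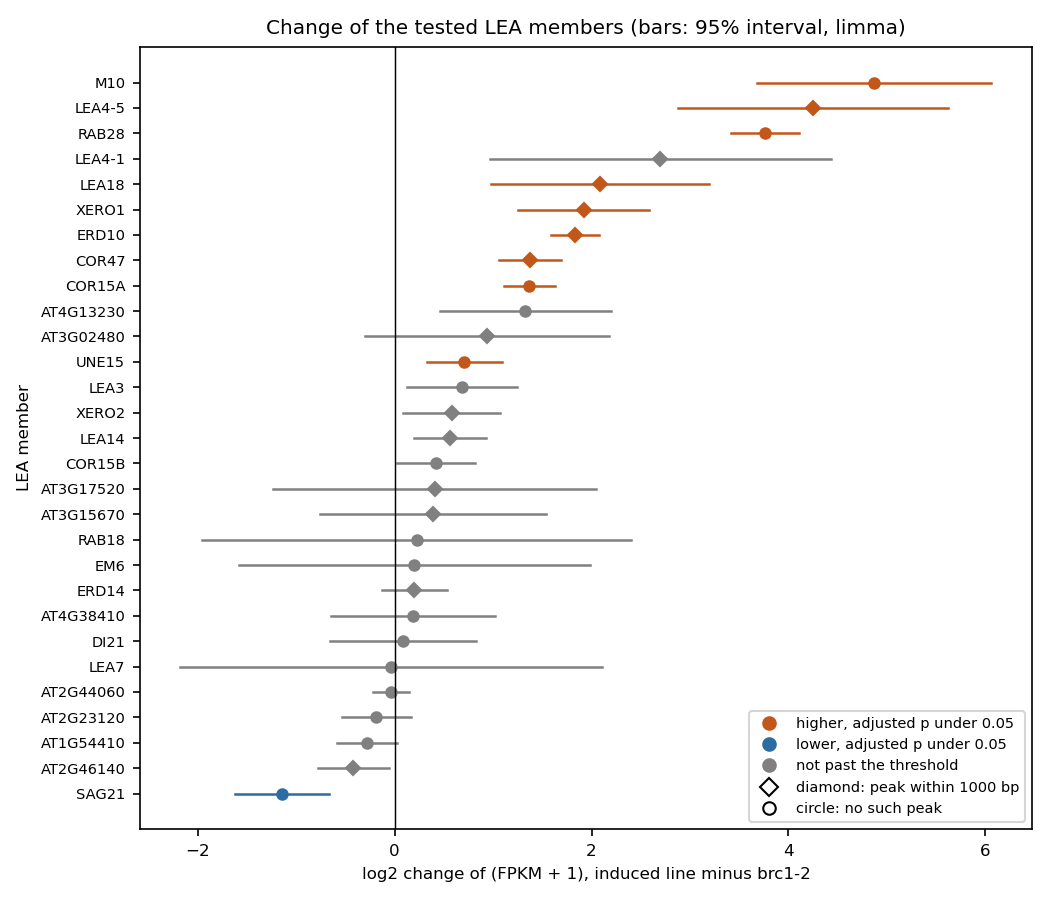
Log2 change of (FPKM + 1), induced line minus brc1-2, for the 29 tested LEA members. Points are limma estimates with 95% intervals, coloured by call, and diamonds mark members with a BRC1 peak midpoint within 1000 bp. M10 (4.87) and LEA4-5 (4.25) have the highest estimates, and SAG21 (-1.14) the lowest.

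Dehydrins bind water, ions and membrane surfaces, and 8 of their 10 members were tested. COR47 (AT1G20440, chromosome 1, 7084409 to 7085772), an acidic dehydrin of cold and drought responses, had FPKM values of 1120, 1235 and 1239 against 415, 436 and 539. Every induced value was more than 2-fold above every brc1-2 value, and the means were 1198 ± 67.2 and 463 ± 66.5 (SD, n = 3 each; log2 change 1.38, SE 0.13, limma adjusted p = 0.00232). ERD10 (AT1G20450, chromosome 1, 7088003 to 7089606), its neighbour and close relative, had 565, 679 and 547 against 170, 166 and 163. ERD10 rose from 166 ± 3.71 to 597 ± 71.6, by 1.83 on the log2 scale (SE 0.10, limma adjusted p = 0.000528). ERD14, the third acidic dehydrin, had 418, 510 and 481 against 400, 358 and 473, values that overlap (log2 change 0.20, 95% interval -0.13 to 0.53, limma adjusted p = 0.377).

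The ratio of ERD10 to ERD14 within a library was 1.35, 1.33 and 1.14 against 0.425, 0.463 and 0.344. ERD10 thus stood above ERD14 in every induced library and below it in every brc1-2 library. The ratio of ERD10 to COR47 was 0.504, 0.55 and 0.441 against 0.41, 0.381 and 0.302. Both ratios were higher in all induced libraries than in any brc1-2 library, by 1.64 and 0.46 on the log2 scale. A two-sided exact permutation test gave p = 0.1 for each, the smallest possible, and 0.1 after adjustment over the 3 ratios compared, which were chosen after the values were seen.

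The tandem pair XERO2 and XERO1 differed in level. XERO2 (AT3G50970, also LTI30), a basic dehydrin that binds membranes, had FPKM values of 88.7, 104 and 99.6 against 86.7, 49.8 and 62.7. The induced values were all higher, though induced library 1 and brc1-2 library 1 lay close together, and the change was not past the threshold (log2 change 0.58, limma adjusted p = 0.113). XERO1 (AT3G50980), a small dehydrin, had 3.77, 2.30 and 2.44 from 32, 27 and 36 fragments in the induced line and was listed at 0 in all brc1-2 libraries. It entered the fit through the induced line alone, so its limma adjusted p of 0.0076 is a description, and no fold is given against a group listed at 0. AT1G54410 was lower in all 3 induced libraries, with means of 1853 ± 162 and 2250 ± 105 that did not pass the threshold (log2 change -0.28, limma adjusted p = 0.195). AT4G38410 stayed between 1.72 and 5.05 with overlapping groups, and LEA (AT2G21490) and AT4G39130 were not listed in any.

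All 3 LEA_1 members (LEA4-1, LEA18 and LEA4-5, known as group 4 LEA proteins, which protect enzymes from drying in the test tube) had induced libraries above all brc1-2 libraries. LEA4-5 (AT5G06760, chromosome 5, 2089492 to 2090430) had FPKM values of 28.2, 31.9 and 28.3 in the induced line, from at least 573 fragments. In brc1-2 it had 3.11, from 91 fragments, and was listed at 0 in libraries 2 and 3. LEA4-5 rose by 4.25 on the log2 scale (SE 0.56, limma adjusted p = 0.00621). Without brc1-2 library 1 the log2 change was 4.93 (limma adjusted p = 0.000263). Both brc1-2 values left in that fit are 0, so its p-value is a description. LEA18 (AT2G35300) had 5.82, 8.19 and 9.19 against 1.93, 1.85 and 0, from at most 135 fragments, and rose by 2.09 on the log2 scale (SE 0.45, limma adjusted p = 0.0301). That call was lost without induced library 1, 2 or 3 or brc1-2 library 2, with log2 changes of 1.96 to 2.33 and limma adjusted p of 0.0503 to 0.103. LEA4-1 (AT1G32560) had 14.1, 12.4 and 1.89 against 1.13, 0 and 0. It was not past the threshold (log2 change 2.70, limma adjusted p = 0.0528). In induced libraries 1 and 2 its FPKM is the sum of a pair of short pieces of 12 to 17 fragments, while induced library 3 held 1 longer piece of 31 fragments. Fragment numbers of 30, 26 and 31 therefore lay closer together than the FPKM values. Without induced library 3, its lowest induced value, the log2 change was 3.47 (limma adjusted p = 0.0133). Leaving out any other single library gave limma adjusted p of 0.0719 to 0.161. LEA4-1 too needed the induced line, where it is high, to pass the filter, so its p-values are descriptions.

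M10 (AT2G41280, chromosome 2, 17209697 to 17210423), a hydrophilic protein known from maturing seeds, had FPKM values of 39.1, 55.2 and 34.3 against 0, 0 and 2.18. The single brc1-2 value rested on 27 fragments, against 534 or more in each induced library. The estimated log2 change was 4.87 (SE 0.49; limma adjusted p = 0.00286), the highest of the 29. Its tandem partner M17 (AT2G41260) was not listed in any of the 6 libraries. RAB28 (AT1G03120, chromosome 1, 752271 to 753140), an ABA-responsive seed maturation protein of embryos, had 13.6, 13.2 and 11.1 in the induced line, from 156 to 203 fragments, and was listed at 0 in all brc1-2 libraries. It too entered the fit through the induced line alone (limma adjusted p = 0.000236, as a description). The other 5 SMP members were listed in no library.

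LEA_4 is the most numerous subfamily, with 18 members, of which 8 were tested and 2 rose. COR15A (AT2G42540, chromosome 2, 17711032 to 17712330), a chloroplast protein that shields membranes during freezing, had FPKM values of 539, 462 and 588 against 207, 196 and 208. Every induced value was more than 2-fold above every brc1-2 value, and the means were 530 ± 63.6 and 204 ± 6.48 (log2 change 1.37, SE 0.11, limma adjusted p = 0.00136). Its tandem copy COR15B (AT2G42530), which does the same work in the chloroplast, had 91.7, 94.3 and 104 against 93.0, 63.0 and 63.7. The COR15B groups overlapped through brc1-2 library 1 (log2 change 0.42, limma adjusted p = 0.147). The ratio of COR15A to COR15B was 5.88, 4.89 and 5.64 against 2.23, 3.12 and 3.26, a log2 difference of 0.95 (two-sided exact permutation p = 0.1, the smallest possible, and 0.1 after adjustment over the 3 ratios). How reads shared by such copies were assigned is not given in the sources used here, so the split between them is uncertain, as it is for COR47 and ERD10.

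UNE15 (AT4G13560), named after a screen for failed fertilization, had FPKM values of 4.53, 3.49 and 4.64 against 1.87, 2.44 and 2.24, from 21 to 49 fragments. It rose by 0.71 on the log2 scale (SE 0.16; limma adjusted p = 0.0306), a call lost without induced library 1 or 3 or any 1 of the brc1-2 libraries, with log2 changes of 0.64 to 0.77 and limma adjusted p of 0.0593 to 0.112. AT4G13230 had 2.95, 3.81 and 2.57 against 1.27, 0 and 0.90 and was just outside the threshold (log2 change 1.33, limma adjusted p = 0.0568), with no overlap between groups. AT3G02480, a short LEA_4 protein, had 134, 129 and 128 in the induced line and a wide spread of 151, 58.5 and 34.5 in brc1-2 (log2 change 0.94, limma adjusted p = 0.27). AT3G15670 had 2.01, 1.42 and 1.32 against 1.31, 2.27 and 0, and AT3G17520 had 2.06, 3.71 and 1.45 against 1.51, 5.02 and 0. Both pairs of groups overlap, and brc1-2 library 3 is the one without a listed piece. LEA7 had 3.22, 2.20 and 1.39 against 10.9, 1.90 and 0. AT2G03740 was listed in 2 induced libraries (1.69 and 1.82), AT3G53040 in induced library 3 (3.03), and AT4G21020 and AT4G36600 in brc1-2 library 1 (0.892 and 1.38), all below the filter. The other 6 members of LEA_4 were listed in no library.

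SAG21 (AT4G02380, chromosome 4, 1046204 to 1046997), a mitochondrial LEA_3 protein linked to senescence and oxidative stress, was the member that fell. It had FPKM values of 254, 360 and 383 against 661, 664 and 868, so that the groups were far apart. The means were 332 ± 68.8 and 731 ± 119 (log2 change -1.14, SE 0.20, limma adjusted p = 0.0142). LEA3 (AT1G02820) of the same subfamily had 16.4, 10.3 and 10.9 against 7.80, 5.47 and 8.95, higher in all induced libraries and not past the threshold (log2 change 0.68, limma adjusted p = 0.103). DI21 (AT4G15910), named for its induction by drought, had 145, 152 and 93.7 against 154, 140 and 80.2, groups that overlap almost fully (log2 change 0.08, 95% interval -0.66 to 0.82). The fourth LEA_3 member, AT3G53770, was not listed.

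The LEA_2 proteins are folded and less hydrophilic than the rest of the family, and none of the 3 passed the threshold. LEA14 (AT1G01470), known from drought and salt responses, had FPKM values of 224, 289 and 232 against 148, 158 and 198. All induced values were higher, with the change just outside the threshold (log2 change 0.56; limma adjusted p = 0.0564) and past it without brc1-2 library 3 (0.69, limma adjusted p = 0.0343). Leaving out any other single library moved LEA14 further from the threshold, with limma adjusted p of 0.103 to 0.145. AT2G44060 had 189, 214 and 201 against 210, 199 and 212. Its log2 change of -0.04 had the narrowest 95% interval of the 29, -0.22 to 0.15. AT2G46140 had 23.4, 23.9 and 22.5 against 40.0, 28.0 and 27.8, lower in all induced libraries (log2 change -0.42, limma adjusted p = 0.115). In PvLEA18, AT2G23120 had 179, 194 and 157 against 241, 178 and 186 (log2 change -0.18, limma adjusted p = 0.437). AT2G23110, its tandem neighbour, was listed in induced libraries 2 and 3 alone (1.72 and 2.15), and AT2G33690 in none. Of the LEA_5 proteins, known from seed drying, EM6 (AT2G40170) had 1.33, 0 and 1.78 against 3.25, 0 and 0, and EM1 was not listed.

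The brc1-2 library 1 stood apart for part of the family. RAB18 (AT5G66400), a dehydrin widely used as a marker of ABA response, had FPKM values of 8.95, 9.33 and 10.2 against 39.6, 3.05 and 3.403. The 3 induced values were nearly equal, while brc1-2 library 1 was above them and the other 2 brc1-2 libraries below them (log2 change 0.22, limma adjusted p = 0.891). By a mark chosen after the values were seen (1 FPKM or more, and 3 times or more the level of both other libraries of the group) brc1-2 library 1 was high for 5 of 29 tested members: RAB18, LEA7, EM6, LEA4-5 and LEA4-1. For EM6, LEA4-5 and LEA4-1 the other 2 brc1-2 libraries were listed at 0. Any value of 1 FPKM or more then met the mark, and theirs were 3.25, 3.11 and 1.13. The same mark took 0.936% of all tested genes in brc1-2 library 1. It took 1 member each in brc1-2 libraries 2 and 3 and none in the induced libraries, where it took between 0.86% and 1.2% of all genes. The library was also the deepest, with 53385759 derived fragments and 21555 genes listed. Induced library 3, where the mark took no member, was close in depth, with 52780463 derived fragments and 21254 genes listed. The part of depth in these values was not tested.

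Without brc1-2 library 1, 13 members passed the threshold in place of 10, with 12 higher and 1 lower. Over all genes the same fit called 2591 in place of 3413, 5.78% higher and 6.54% lower. COR15B, AT3G02480, XERO2 and RAB18 were gained and UNE15 was lost. The log2 changes of the gained members were then 0.60, 1.51, 0.79 and 1.31 (limma adjusted p = 0.0159, 0.0197, 0.025 and 0.00555). For those 4 members, whose induced values lay above both other brc1-2 libraries, the side of the threshold thus turned on 1 brc1-2 library. The remaining members that rose kept their calls in that fit.

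**Figure D3:**
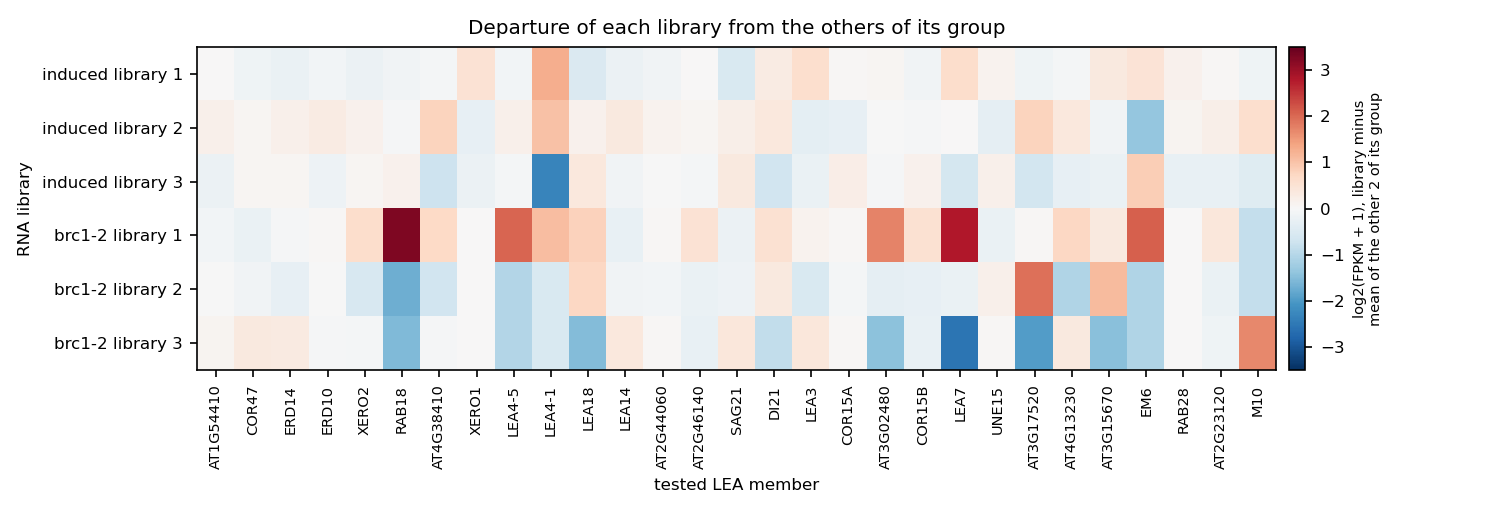
Departure of each RNA library from the other 2 of its group for the 29 tested members, as the difference in log2(FPKM + 1), on a colour scale from blue (lower) to red (higher). Rows are libraries and columns are members in the order of the plot of levels. The row of brc1-2 library 1 holds the deepest red cells, RAB18 (3.26) and LEA7 (2.80).

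Binding of the fusion was read from the deposited list of 4227 peaks (median width 398 bp), which by its name is shared by anti-GFP libraries 1 and 2. A peak midpoint lay within 1000 bp of the annotated row of 18 of the 51 members (35.3%), beside 12% of all rows with a position and 16.1% of tested genes. Of the 9 members that rose, 5 had such a peak, beside 44.5% of all genes that rose. Of the 19 tested members past no threshold, 8 had one, beside 13.6% of tested genes not called. SAG21, the member that fell, had none, beside 15.5% of all genes that fell with one, and its nearest midpoint was 14982 bp away. These shares describe a list of related genes and were not tested. Near the 18 members lay 22 peaks of 198 to 914 bp, of which 2 had midpoints inside the row. For 11 of the 22 another annotated row also lay within 1000 bp. The files give no strand, so upstream and downstream could not be told apart.

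The member with the most peaks was ERD10, with 3, at 7089052 to 7089388 inside its row, at 7089855 to 7090768 and at 7086633 to 7087393 on chromosome 1 (TAIR10 per the submitters' processing notes). The last of these lies between ERD10 and COR47, with its midpoint 990 bp from the first and 1241 bp from the second. COR47 had a peak at 7084223 to 7084534 that overlaps its row, with the midpoint 31 bp outside it. That midpoint is also within 1000 bp of AT1G20430. LEA4-5 had a peak at 2090240 to 2090812 on chromosome 5 that overlaps its row, with the midpoint 96 bp outside it. That midpoint is also within 1000 bp of AT5G06770. LEA18 had a peak at 14863331 to 14863700 on chromosome 2 that overlaps its row, with the midpoint 128 bp outside it. All 3 LEA_1 members had a peak, since LEA4-1 had one at 11774292 to 11774615 on chromosome 1. It overlaps the row of LEA4-1, with the midpoint 31 bp outside, and AT1G32550 is also within 1000 bp of that midpoint. XERO1 and XERO2 share 1 peak between them, at 18941681 to 18941971 on chromosome 3. Its midpoint lies 99 bp from XERO1, which rose, and 272 bp from XERO2, which did not pass the threshold. The peak itself overlaps the row of XERO1.

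The other 4 members that rose had no peak within 1000 bp. RAB28 lay 22462 bp from the nearest midpoint, UNE15 13874 bp, COR15A 8364 bp and M10 5238 bp. The converse also occurred. ERD14 had a peak midpoint inside its row and another 720 bp away, with overlapping RNA levels. LEA14 had peak midpoints 391 and 628 bp away on either side, and AT3G17520 had peak midpoints 211 and 382 bp away. AT3G02480, AT3G15670 and AT2G46140 had 1 peak each, with midpoints at 132, 181 and 593 bp. The peaks of AT3G02480 and AT3G15670 overlap their rows. The other 5 of the 18 members with a peak were below the RNA filter: EM1, AT2G18340, AT2G03740, AT2G23110 and AT4G36600. EM1 and AT2G18340, with peaks that overlap their rows and midpoints 137 and 115 bp away, were listed in no RNA library.

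**Figure D4:**
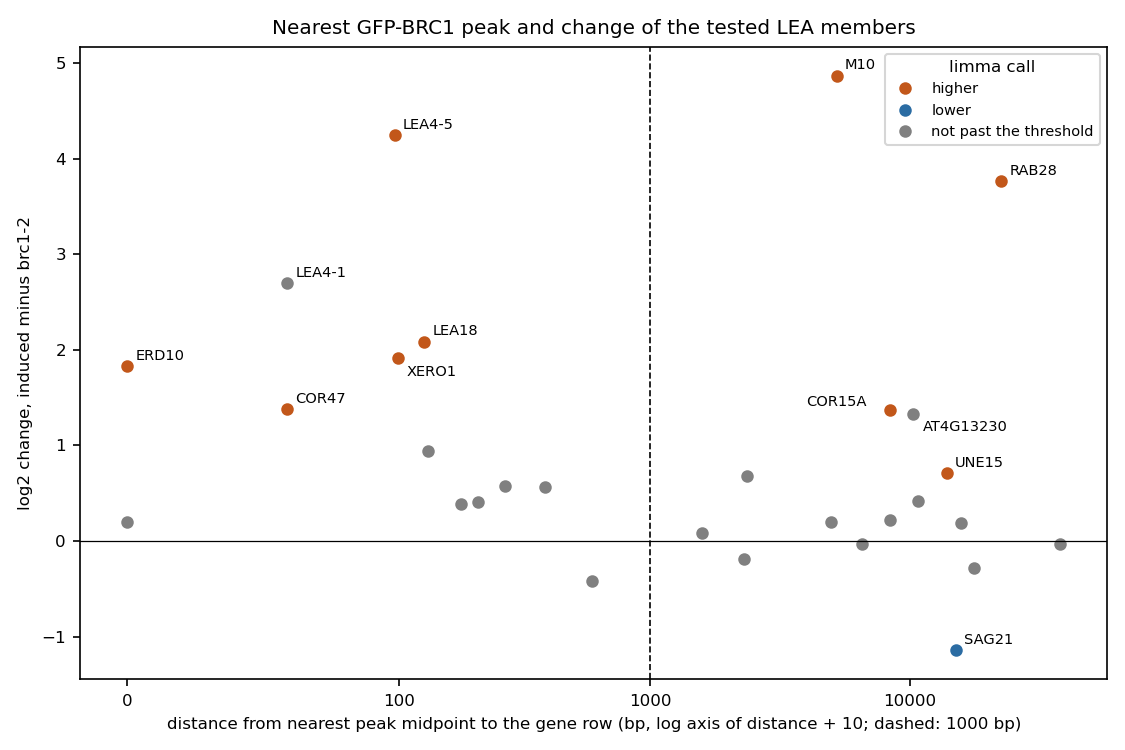
Distance from the nearest peak midpoint to the gene row (horizontal, in bp on a log axis of distance + 10, dashed line at 1000 bp) against the log2 change of the 29 tested members (vertical), coloured by limma call. Members that rose lie on both sides of the dashed line, with 5 inside it and M10, RAB28, COR15A and UNE15 outside it.

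Of 17 transcription factors known to act on LEA genes in seeds, ABA response or cold, 11 were tested, 5 rose and none fell, beside 7.37% and 8.86% of all tested genes. ABF3, an ABA-responsive bZIP factor, had FPKM values of 52.9, 49.6 and 55.9 against 14.9, 13.4 and 13.3 (log2 change 1.85, limma adjusted p = 0.000247), and ABI5, the bZIP factor of seed ABA response, had 5.77, 6.30 and 5.89 against 2.58, 2.35 and 1.99 (limma adjusted p = 0.0038). AREB3, a related bZIP factor, rose by less, from 13.6 ± 0.229 to 18.8 ± 0.878 (limma adjusted p = 0.00745). EEL, a bZIP factor of embryos, had 6.76, 6.18 and 6.69 against 4.64, 4.05 and 3.01 (limma adjusted p = 0.0361). The cold regulator CBF2 had 4.98, 4.67 and 5.38 against 1.78, 0 and 1.38 (limma adjusted p = 0.0398). CBF2 reached 1 FPKM in fewer than 3 brc1-2 libraries and needed the induced line, where it is high, to pass the filter. Its call and the count of 5 are therefore descriptions. The call of EEL was lost without induced library 1, 2 or 3 or brc1-2 library 2 (limma adjusted p = 0.0845 to 0.119), and that of CBF2 without induced library 1, 2 or 3 or brc1-2 library 3 (0.0634 to 0.121) and at a pseudocount of 0.1 (0.144). By the same rule 9 of the 17 had a peak, beside 12% of all rows with a position. All 9 were among the 11 tested, beside 16.1% of all tested genes with a peak. A peak lay near 4 of the 5 that rose, all but AREB3, beside 44.5% of all genes that rose. Of the 6 past no threshold, 5 had one, all but ABF2, beside 13.6% of tested genes not called. These shares of a chosen list were not tested. CBF1, CBF2 and CBF3 are near-identical neighbours, so the split of reads among them is uncertain. ABF1, ABF2, ABF4, CBF1, CBF3 and DREB2A did not pass the threshold. The 6 others, among them the seed regulators ABI3, FUS3, LEC1 and LEC2, were listed at 0 in all libraries.

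Since many LEA genes are active in maturing embryos, 11 seed storage and oil body genes were read as markers of seed tissue. Of these, 6 were listed in no library, including CRC and SESA1, and the summed FPKM of all 11 was 2.11, 3.20 and 3.02 against 7.79, 12.2 and 2.83. None of the 3 that were tested passed the threshold. The sums of brc1-2 libraries 1 and 2 were above those of all induced libraries, and that of brc1-2 library 3 lay among them. All 5 green tissue genes were listed in every library, as the label of seedlings implies, with a summed FPKM of 16824 to 25201. Among them LHCB2.1 of the light-harvesting antenna fell from 770 ± 124 to 374 ± 24.1 (limma adjusted p = 0.00611). The other 4 green genes did not pass the threshold, with log2 changes of 0.22 for RBCS1A, -0.01 for RBCS3B, -0.19 for RCA and -0.48 for LHCB1.1. Of 5 root genes, all were listed, and EXP7, an expansin of root hairs, fell from 17.3 ± 6.44 to 2.50 ± 0.638 (limma adjusted p = 0.00433). The other 4 root genes did not pass the threshold, with log2 changes of 0.07 for SCR, 0.44 for SHR, 0.68 for PLT1 and -0.66 for COBL9. The part of these tissue markers in the LEA results was not tested.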

How the data were processed

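The RNA tables hold FPKM with lower and upper confidence bounds, made by the authors with Cufflinks, per the file headers and names. The submitters' processing notes name Bowtie, TopHat, Cuffdiff, Bowtie2, MACS2 and the build TAIR10, without roles or versions. Signal sits on assembled pieces placed on transcript contigs, and the 33147 annotated chromosome rows, at 0 in each table, gave gene positions. For each gene the FPKM of all pieces was added, and a gene without a piece was taken as 0. Fragment numbers were derived from the width of the bounds, taken as counting error, and cover that error only. Values log2(FPKM + 1) were fitted for all 6 libraries with limma 3.58.1 (lmFit, eBayes with trend, no covariates) in R 4.3.3, with Benjamini-Hochberg adjustment over all 21038 genes tested. Fold changes on this scale understate low genes. The fit was tested on simulated data. Python 3.11.15 with numpy 2.4.6 and pandas 2.3.3 was used.

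The deposited peak list, with start and end positions and no score, holds peaks shared by 2 anti-GFP libraries, per its name. Not analysed here were the Inputs and anti-GFP library 3. Positions are counted from 1. A peak was given to a gene when its midpoint lay within 1000 bp of the nearest edge of the gene's row. Alternatives were other pseudocounts, filters, scalings, ways to join pieces, voom, a replicate block, leaving out each library, and other peak windows.

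The members and lists were chosen with earlier results of these data known. Subfamilies follow the published classification. Described singly were members past the threshold, with a peak, or listed in all libraries of 1 group and at most 1 of the other, and the rest by ranges or brief values. AT1G54410, RAB18 and other members outside that rule were named after their values were seen. Symbols were matched for all 51 members in a RefSeq table of assembly TAIR10.1, from which no coordinates were used.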

Additional observations from a re-analysis of the deposited data

How the results depend on the processing

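Among the 29 tested members, 484 refits of a single member under an alternative left 436 with the same direction and side of the threshold, 14 below it, 17 newly past it and 17 with the opposite sign, all in members without a call. The number of members past the threshold ranged from 8 to 13 (7 to 12 higher and 1 lower) when any 1 library was left out, with the tested genes held fixed, and from 9 to 13 in all other settings. COR47, ERD10, COR15A, RAB28, M10, LEA4-5 and SAG21 kept their calls in every setting. LEA18 lost its call at a pseudocount of 0.1 (log2 change 3.39, limma adjusted p = 0.121) and in a voom fit of the fragment numbers (4.21, 0.0583), UNE15 by voom (0.63, 0.22), and XERO1 and UNE15 were not tested at an FPKM of at least 5. LEA4-1 passed with the highest piece only (2.23, 0.0382), with length-weighted pieces (2.08, 0.0306) and under quantile normalization (2.79, 0.0321), AT4G13230 in 4 settings and LEA14 in 4. LEA7 turned from -0.03 to 0.79 at a pseudocount of 0.1 and to 0.98 by voom. Across fits that left out 1 library, signs changed within -0.88 to 0.90 for LEA7, -0.15 to 0.90 for EM6, -0.0821 to 0.0079 for AT2G44060, -0.10 to 0.755 for AT3G15670, -0.25 to 1.05 for AT3G17520, -0.20 to 0.3047 for DI21, -0.079 to 0.4256 for AT4G38410 and -0.35 to 1.31 for RAB18. The number of genes called overall ranged from 1637 to 2929 in those fits (745 to 1363 higher, 892 to 1566 lower). BRC1 stayed within 10.22 to 10.44 on the log2 scale there. The pseudocount sets the size for members listed at 0 in part of brc1-2: at 0.1 and 5 the log2 change was 7.21 and 3.06 for M10 and 6.54 and 2.55 for LEA4-5. With the replicate block, 9 members were called in place of 10, LEA18 (limma adjusted p = 0.064) and UNE15 (0.0753) being lost and LEA4-1 (0.0402) gained, and 2989 genes in place of 3413. Among the regulators, EEL (0.0599) and CBF2 (0.0509) were lost under the block. The labels give no shared origin of same-numbered libraries, so the numbers were not taken as pairs. Same-numbered libraries had deviations correlated at 0.08, 0.06 and 0.19, and differently numbered ones at -0.22 to 0.14. Members with a peak were 2 with the midpoint inside the row (1.79% of all rows), 16 at 500 bp (8.49%), 22 at 3000 bp (21.4%), 13 with each peak given to its nearest row (8.65%) and 8 with the 2116 wider peaks (6.05%). The cause of these shifts was not tested. No setting moved the median log2 change of all tested genes outside 0.007 to 0.0573. XERO1, LEA4-1, UNE15 and AT4G13230 had under 50 fragments in every library, and the part of depth in their results was not tested.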
